A study of Mus musculus with 15 samples.

Results

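Day 13 GFP+ cells were compared with the undifferentiated induced pluripotent stem cells (iPSC) from which they were grown, so that the net change over the whole culture could be read gene by gene. The comparison took 6 of the 15 samples of the series, chosen by their labels, and all 25206 probe sets. The 3 GFP+ samples, numbered 3, 5 and 6, were sorted at day 13 of smooth muscle differentiation as candidate smooth muscle cells. The 3 day 0 samples carry the same numbers and are iPSC of the mouse Acta2hrGFP reporter line before differentiation, in which green fluorescent protein marks activity of Acta2. The cultured groups are derivatives of that reporter line. The other samples gave levels to compare with and entered the same fit, so that they share in setting the spread behind each p-value. They were 3 of Kdr+ mesodermal progenitors sorted at day 5, 3 of day 13 cells without reporter signal (GFP-), and 3 of primary GFP+ smooth muscle cells from mouse aorta. Each group is described as biological triplicates. The labels do not say whether the 3 came from cultures kept apart throughout, and p-values measure only the spread between these samples. Where 3 values of a group are listed, they are samples 3, 5 and 6 in that order.

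Pluripotent stem cells hold a self-renewing state through a transcription factor network built around Pou5f1, Sox2 and Nanog, and they divide rapidly with a short gap phase. Vascular smooth muscle cells arise largely from mesoderm. They express actin, myosin and calponin family genes of a contractile programme under serum response factor and its coactivator myocardin, and during development they also secrete the collagens and elastic fibre proteins of the vessel wall.

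Expression is given as log2 values from Affymetrix Mouse Gene 2.0 ST arrays, so a difference of 1 is a 2-fold difference. No detection calls came with the values, so a low level may be background, and a fold set against one is limited by the lowest signal that the array gives. Across genes, which are not independent replicates, GFP+ samples 5 and 6 correlated at 0.994 and each correlated with sample 3 at 0.982 to 0.983. Pairs of day 0 samples correlated at 0.987 to 0.991, and GFP+ samples correlated with day 0 samples at 0.886 to 0.892. GFP+ sample 3 therefore stood somewhat apart from the other GFP+ samples. Where a gene's net change is given below and depends on that sample, its change or adjusted p without it is given too. Further genes that depend on it are not described. In sorted bulk samples, fewer cells of a type and less RNA per cell cannot be told apart.

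By limma, with p-values adjusted over all probe sets and a threshold of 0.05, 4463 probe sets rose (17.7%) and 4993 fell (19.8%), 37.5% in all. The median log2 change of all probe sets was -0.025. At least 2-fold changes were found in 2250 that rose (8.93%) and 2415 that fell (9.58%), and at least 16-fold changes in 88 that rose and 79 that fell. The 3 GFP+ values lay wholly above the 3 day 0 values in 22.3% of probe sets and wholly below them in 25.7%, so that the groups did not overlap in 48.0%. Acta2 (11475_at), the smooth muscle alpha-actin gene whose activity the reporter marks, measured 11.23, 11.47 and 11.27 in GFP+ samples, against 7.35, 6.94 and 6.74 at day 0 (log2 change 4.31, SE 0.229, 19.9-fold, limma adjusted p = 6.16e-10). Pou5f1 (18999_at), the Oct4 factor of pluripotent cells, measured 4.59, 4.50 and 4.57 in GFP+ samples, against 6.48, 6.82 and 6.41 at day 0 (log2 change -2.02, SE 0.177, 4.05-fold, limma adjusted p = 1.63e-07). Neither gene's groups overlapped. The GFP+ cells were sorted by the Acta2 reporter, so a high Acta2 level in them was favoured by the sort. Acta2 averaged 11.32 in GFP+ and 10.67 in GFP- cells of day 13, a difference that did not pass (log2 difference 0.65, limma adjusted p = 0.151, and 0.0843 with the replicate number shared by these sorts as a block).

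The 15 genes of largest increase included collagens, microfibril genes and proteoglycans of the extracellular matrix. Capn6 (12338_at), a calpain family member without protease activity, had the largest increase. It measured 10.11, 9.83 and 9.76 in GFP+ samples, against 3.47, 3.57 and 3.48 at day 0 (log2 change 6.39, SE 0.133, 84.1-fold, limma adjusted p = 7.68e-14). Col3a1 (12825_at), the type III fibrillar collagen, measured 9.82, 10.04 and 10.27 in GFP+ samples, against 4.06, 3.80 and 3.32 at day 0 (log2 change 6.32, SE 0.284, 79.8-fold, limma adjusted p = 1.06e-10). Igfbp5, which binds insulin-like growth factors, measured 10.11, 9.99 and 10.21 in GFP+ samples, against 4.51, 3.99 and 3.38 at day 0 (log2 change 6.14, SE 0.216, 70.6-fold, limma adjusted p = 7.39e-12). In each of these 3 genes every GFP+ value exceeded every day 0 value by several log2 units. Fbn2 (log2 change 5.96), a fibrillin of embryonic microfibrils, and Mfap4 (5.88), which associates with microfibrils, rose as well. So did the matrix genes Tgfbi (5.82), Fmod (5.78) and Col12a1 (5.65), the heparin-binding growth factor gene Ptn (5.68) and the pericyte gene Rgs5 (5.67). The protocadherin gene Pcdh7 (5.25), the Yap target gene Ankrd1 (5.25) and the RNA-binding gene Rbms3 (5.20) completed the set with Ogn and Postn. Ogn, a small leucine-rich proteoglycan, measured 6.91, 10.08 and 10.32 in GFP+ samples, against 3.05, 3.39 and 3.33 at day 0 (log2 change 5.85, SE 0.993, 57.7-fold, limma adjusted p = 0.000165). Its GFP+ sample 3 was far below the other GFP+ samples. The log2 change of Ogn was 6.95 with GFP+ sample 3 left out and 5.24 with sample 6 left out, and that of the periostin gene Postn was 5.58 in all samples and 6.17 without GFP+ sample 3.

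**Figure D1:**
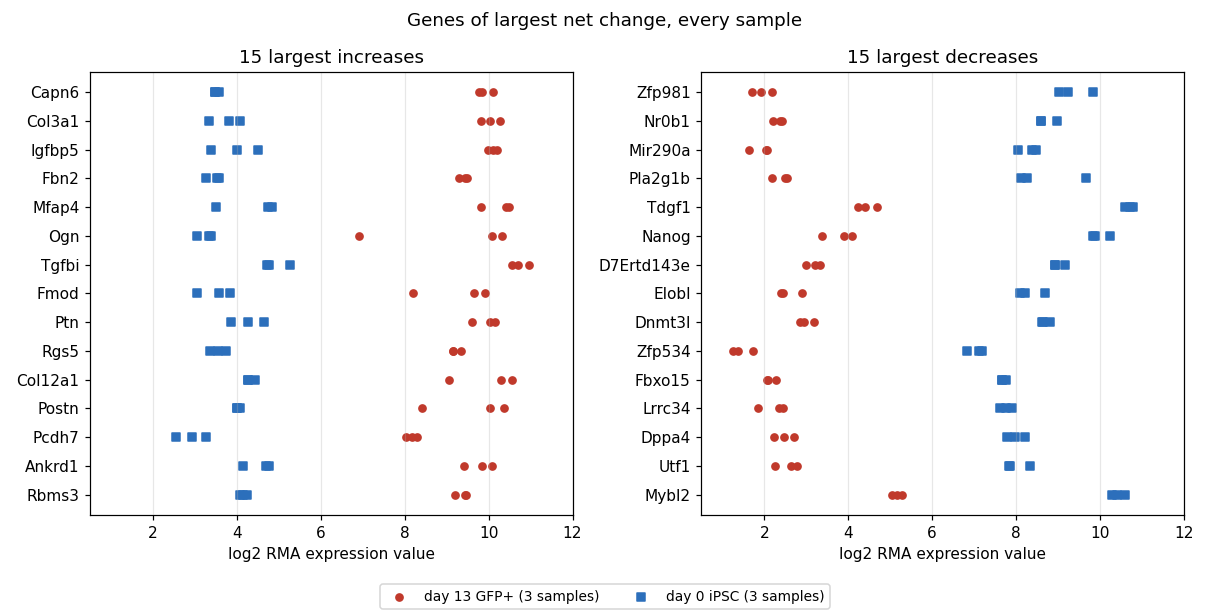
Log2 expression values (horizontal axes) of the 15 genes of largest increase (left) and largest decrease (right) in each sample, with red circles for the 3 day 13 GFP+ samples and blue squares for the 3 day 0 iPSC samples. The groups do not overlap in any gene shown, which the rule of choice requires, and GFP+ sample 3 lies apart at 6.91 for Ogn.

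The 15 genes of largest decrease included transcription factors and chromatin genes of the pluripotent state. Zfp981 (100041433_at), a zinc finger gene, measured 1.91, 2.19 and 1.71 in GFP+ samples, against 9.83, 9.02 and 9.23 at day 0 (log2 change -7.42, SE 0.246, 171.0-fold, limma adjusted p = 4.53e-12). Nr0b1 (11614_at), the nuclear receptor Dax1 of the pluripotency network, measured 2.37, 2.43 and 2.21 in GFP+ samples, against 8.98, 8.60 and 8.59 at day 0 (log2 change -6.39, SE 0.129, 83.8-fold, limma adjusted p = 7.68e-14). Nanog (71950_at) measured 4.08, 3.37 and 3.91 in GFP+ samples, against 10.23, 9.83 and 9.88 at day 0 (log2 change -6.19, SE 0.186, 73.2-fold, limma adjusted p = 2.14e-12). All GFP+ values of the 3 genes lay well below all day 0 values. Tdgf1 (-6.27), the Nodal co-receptor Cripto, Dnmt3l (-5.70), a cofactor of de novo DNA methylation, and the stem cell genes Fbxo15 (-5.56), Dppa4 (-5.53) and Utf1 (-5.45) fell as well. Pla2g1b (-6.29), a secreted phospholipase A2, D7Ertd143e (-5.84), Lrrc34 (-5.55), the microRNA locus Mir290a (-6.39) and the cell cycle transcription factor gene Mybl2 (-5.28) fell too. Zfp534 (-5.60) and Elobl (-5.76) belong with Zfp981 to families with closely similar copies, and their values are uncertain for that reason. The stages differed between genes. Nr0b1 averaged 8.73 at day 0, 2.31 at day 5 and 2.34 in GFP+ cells. Nanog averaged 9.98, 7.42 and 3.79 at these stages, and Tdgf1 10.70, 10.22 and 4.44.

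A total of 52 gene lists was used to describe the rest, and for each the counts of members that rose or fell stand beside the 17.7% and 19.8% of all probe sets. The lists were chosen with earlier results of these data known, so the counts describe the lists and do not test them. The matrix lists stood at one end of the range, with medians from 2.56 to 3.70. The pluripotency, DNA replication and DNA repair lists stood at the other, with medians from -3.43 to -2.09.

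**Figure D2:**
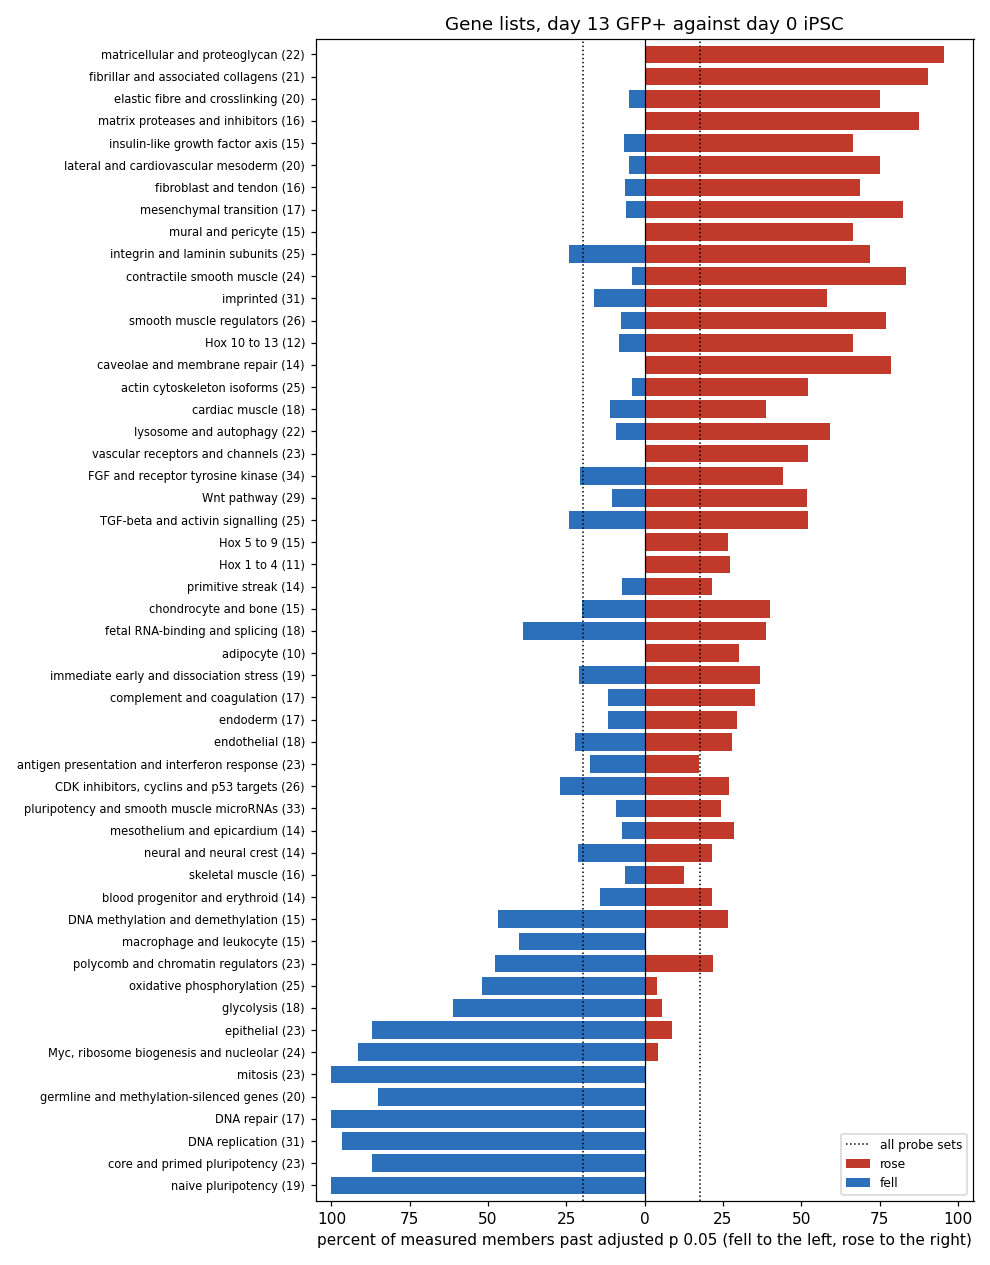
Percent of the measured members of each gene list (number in brackets) that rose (red, to the right) or fell (blue, to the left) in day 13 GFP+ cells against day 0 iPSC, ordered by the median log2 change of the list. Dotted lines mark the percentages of all probe sets, 17.7 for rose and 19.8 for fell. Every member of the naive pluripotency, mitosis and DNA repair lists fell, and 21 of 22 matricellular genes rose.

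All 19 naive pluripotency genes fell (median log2 change -3.43). Besides Nr0b1, Nanog and Fbxo15 they included Tfcp2l1 (log2 change -5.07) and Fgf4 (-4.96), a transcription factor gene and the growth factor gene of the inner cell mass. Tfcp2l1 measured 3.17, 3.36 and 3.34 in GFP+ samples, against 8.39, 8.41 and 8.29 at day 0, with no overlap (log2 change -5.07, limma adjusted p = 6.75e-12). Of the core and primed list 20 of 23 members fell, 0 rose and 3 did not pass (median -2.45). Sox2, the partner of Pou5f1, measured 5.67, 4.78 and 4.74 in GFP+ samples, against 9.61, 9.76 and 9.66 at day 0 (log2 change -4.61, SE 0.24, 24.4-fold, limma adjusted p = 4.99e-10). Every GFP+ value of Sox2 was lower than every day 0 value. Epcam (-4.76), a surface protein of stem cells and epithelia, and Rex2 (-5.08) fell too. Lin28b, which blocks let-7 maturation, averaged 3.91 in GFP+ cells and 3.51 at day 0 and did not pass (log2 change 0.39, limma adjusted p = 0.149).

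The lists differed in when they moved, as the counts of each stage show. The day 5 samples were sorted for Kdr and the day 13 samples for the Acta2 reporter. Time in culture and the choice of cells by the sort therefore cannot be told apart. The day 5 comparison and the net change share the day 0 samples, and the later comparison shares the GFP+ samples, so the counts are set side by side only. In the naive list 18 genes were lower and 1 higher at day 5 than at day 0, and 5 were lower and 4 higher in GFP+ cells than at day 5. In the core and primed list 13 were lower and 4 higher at day 5 than at day 0, and 12 were lower and 1 higher in GFP+ cells than at day 5. Among all probe sets 14.9% were higher and 13.9% lower at day 5 than at day 0, and 14.3% were higher and 16.9% lower in GFP+ cells than at day 5. Sall4, a zinc finger factor of stem cells, averaged 9.41 at day 0, 9.78 at day 5 and 5.71 in GFP+ cells. Its net change passed the test (log2 change -3.70, limma adjusted p = 1.54e-10).

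**Figure D3:**
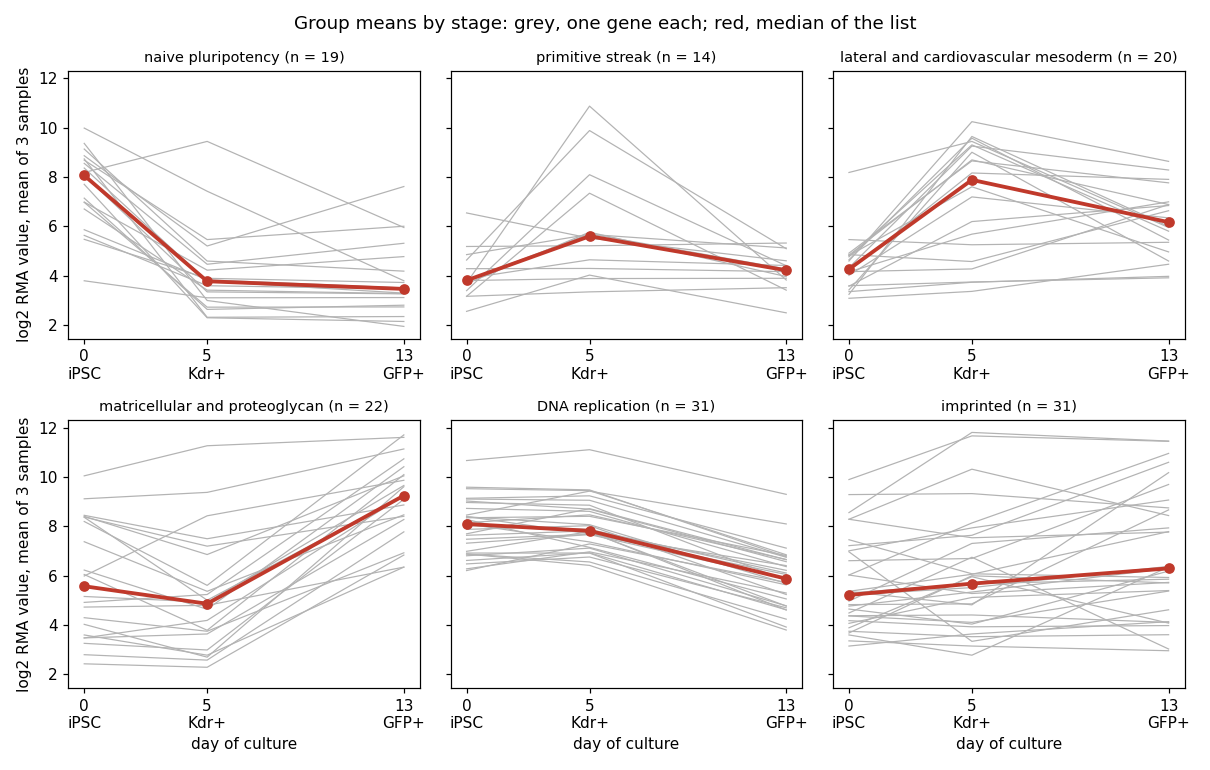
Group means on the log2 scale (vertical axes) at day 0 (iPSC), day 5 (Kdr+) and day 13 (GFP+) for 6 gene lists, with 1 grey line per gene and the list's median in red. The naive pluripotency median drops by day 5, the primitive streak and mesoderm medians are highest at day 5, and the matricellular and DNA replication medians move after day 5.

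Germline genes that DNA methylation keeps silent in somatic cells fell in 17 of 20 members, with 0 that rose (median -1.76). Tdrd12 (-5.23), of the Piwi-interacting RNA pathway, Sycp1 (-4.66), of the synaptonemal complex, Mael (-3.53) and Dazl (-3.51) fell most. Tdrd12 measured 2.32, 2.25 and 2.33 in GFP+ samples, against 7.66, 7.57 and 7.37 at day 0, so the groups lay far apart (log2 change -5.23, limma adjusted p = 3.63e-13). In the DNA methylation list 7 of 15 members fell and 4 rose (median -0.32). The de novo methyltransferase gene Dnmt3b measured 4.73, 4.55 and 4.61 in GFP+ samples, against 7.86, 7.31 and 7.40 at day 0 (log2 change -2.90, limma adjusted p = 9.67e-10). The other de novo enzyme gene, Dnmt3a, rose (log2 change 0.89, adjusted p = 0.000328). Among the oxidases that start demethylation, Tet1 fell (log2 change -3.15) and so did Tet2 (-1.25), and Tet3 rose (1.65). Tet3 measured 7.39, 7.06 and 7.04 in GFP+ samples, against 5.71, 5.41 and 5.42 at day 0 (log2 change 1.65, limma adjusted p = 4.91e-07). The groups did not overlap in Dnmt3b or Tet3, which moved in opposite directions. Uhrf1, which brings the maintenance methyltransferase to replicated DNA, fell (-2.49).

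Polycomb and chromatin regulators fell in 11 of 23 members and rose in 5 (median -0.40). Among subunits and partners of the histone H3 lysine 27 methyltransferase complex, Mtf2 (log2 change -1.90), Phf19 (-2.29), Suz12 (-1.87) and Jarid2 (-1.87) fell. Other measured subunits, among them Ezh2, Ezh1 and Eed, are not described. Cbx7, a chromobox reader of that mark, measured 5.58, 5.26 and 5.54 in GFP+ samples, against 8.45, 8.06 and 7.96 at day 0 (log2 change -2.70, limma adjusted p = 4.11e-09). Its groups did not overlap. Smarca2, an ATPase of the SWI/SNF remodelling complexes, measured 7.58, 7.34 and 7.58 in GFP+ samples, against 4.77, 4.69 and 4.27 at day 0 (log2 change 2.93, SE 0.173, 7.6-fold, limma adjusted p = 1.88e-09), a rise with no overlap. Hdac9 (1.31), Smarcd3 (1.01), Ring1 (0.56) and Hdac11 (0.62) rose as well, but Hdac11 did not pass without GFP+ sample 3 (adjusted p = 0.0703), without GFP+ sample 6 (0.0525) or without day 0 sample 3 (0.127).

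The array reads the transcript of a microRNA locus and does not tell its mature arms apart. Mir290a, first hairpin of the cluster that dominates microRNA in mouse pluripotent cells, is shown with the later Mir302 hairpins because their arms share seed letters and their levels were highest at different stages. The RefSeq mature sequences (GRCm38.p6) are printed 5′ to 3′, with the seed (bases 2 to 8) in capitals. Mir290a lies on the plus strand with the 3p arm at chr7:3218674-3218697, and the Mir302b, Mir302c and Mir302d 3p arms lie on the plus strand at chr3:127545275-127545297, chr3:127545406-127545427 and chr3:127545665-127545687.
miR-290a-3p: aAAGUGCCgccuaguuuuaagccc
miR-302b-3p: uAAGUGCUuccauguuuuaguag
miR-302d-3p: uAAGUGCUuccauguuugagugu
miR-302c-3p: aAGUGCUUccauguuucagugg
miR-302b-5p: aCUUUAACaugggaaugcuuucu
miR-302c-5p: gCUUUAACaugggguuaccugc
miR-302d-5p: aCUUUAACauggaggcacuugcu
The 3p arms of miR-302b and miR-302d share the seed AAGUGCU, that of miR-302c reads AGUGCUU, that of miR-290a reads AAGUGCC, and the 3 printed 5p arms share CUUUAAC.

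Mir290a measured 2.04, 1.64 and 2.06 in GFP+ samples, against 8.37, 8.48 and 8.05 at day 0 (log2 change -6.39, SE 0.247, 83.8-fold, limma adjusted p = 2.06e-11). It averaged 8.30 at day 0, 4.41 at day 5 and 1.91 in GFP+ cells, so it was low in every GFP+ sample. Mir302b averaged 1.97 at day 0, 4.33 at day 5 and 1.44 in GFP+ cells, and its net change did not pass (log2 change -0.53, limma adjusted p = 0.149), except without day 0 sample 5 (log2 change -0.78, adjusted p = 0.0366). Mir302c averaged 1.43, 3.81 and 1.29 at these stages, and Mir302d averaged 2.03, 3.79 and 1.77. Neither net change passed (log2 change -0.14 for Mir302c and -0.27 for Mir302d). The host transcript of the Mir17 to Mir92 cluster, Mir17hg, fell (-2.14).

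On the smooth muscle side, Mir145a, which targets Klf4 in smooth muscle, measured 3.64, 4.41 and 4.28 in GFP+ samples, against 1.37, 1.45 and 1.58 at day 0 (log2 change 2.64, SE 0.369, 6.24-fold, limma adjusted p = 2.41e-05). All GFP+ values of Mir145a lay above all day 0 values. Its neighbour Mir143 rose by 1.26 on the log2 scale (adjusted p = 0.000682) and their host transcript Carmn by 1.42 (adjusted p = 0.000145). In the whole list of 33 loci and host transcripts 8 rose and 3 fell (median 0.03), where 17.7% and 19.8% of all probe sets rose and fell. The let-7 locus Mirlet7d fell (-0.91), but not without GFP+ sample 3 (adjusted p = 0.0608) or day 0 sample 5 (0.0643).

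The contractile smooth muscle genes rose in 20 of 24 measured members, 1 fell and 3 did not pass (median log2 change 1.54). Tagln (21345_at), the actin-binding protein transgelin, measured 9.43, 9.44 and 9.29 in GFP+ samples, against 5.46, 5.24 and 5.54 at day 0 (log2 change 3.97, SE 0.165, 15.7-fold, limma adjusted p = 4.25e-11). Myl9 (98932_at), the regulatory light chain of smooth muscle myosin, measured 9.19, 9.28 and 9.20 in GFP+ samples, against 5.64, 5.33 and 4.90 at day 0 (log2 change 3.93, SE 0.188, 15.3-fold, limma adjusted p = 1.96e-10). Actg2, the enteric smooth muscle actin, measured 7.29, 7.03 and 6.44 in GFP+ samples, against 3.73, 3.68 and 3.44 at day 0 (log2 change 3.30, limma adjusted p = 1.32e-08). The groups were wide apart in all 3 genes. Itga8 (3.70), an integrin subunit of smooth muscle, and Pgm5 (3.45), a protein of adhesion plaques, were next in size after Acta2, Tagln and Myl9. By stage, 6 members were higher and 4 lower at day 5 than at day 0 (14.9% and 13.9% of all probe sets), and 21 were higher and 0 lower in GFP+ cells than at day 5 (14.3% and 16.9% of all probe sets).

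Other markers of contractile cells had smaller changes. Myh11 (17880_at), the smooth muscle myosin heavy chain, measured 4.36, 4.78 and 4.78 in GFP+ samples, against 3.98, 4.17 and 4.52 at day 0 (log2 change 0.42, SE 0.15, limma adjusted p = 0.0383). Its groups overlapped, and the call was lost without GFP+ sample 5 (adjusted p = 0.145) or 6 (0.144), without day 0 sample 3 (0.177) or 5 (0.107), in a fit of only the 6 samples compared (0.105) and after repeated quantile normalization (0.0648). Cnn1 (log2 change 1.37), the calponin of contractile cells, Lmod1 (0.82), a leiomodin that nucleates actin, Synpo2 (0.72) and Smtn (0.67), smoothelin, rose. Against aortic GFP+ cells, 21 of the 24 members were lower in day 13 GFP+ cells and 0 higher, where 17.7% and 19.5% of all probe sets were lower and higher. Myh11 averaged 4.64 in day 13 GFP+ cells and 11.03 in aortic cells, and Acta2 averaged 11.32 and 12.10 (limma adjusted p = 9.18e-14 and 0.0145). Aoc3, an amine oxidase of mature vascular smooth muscle, was the member that fell (log2 change -0.89, limma adjusted p = 3.83e-05). It averaged 2.35 in day 13 GFP+ cells, 3.24 at day 0 and 9.66 in aortic cells. The first 2 levels lay below the lowest sample median of all probe sets (4.08), so the fall may lie within background. Of the markers that define smooth muscle, the actin, transgelin and light chain genes were thus high in every GFP+ sample, while Myh11 was near its day 0 level. For Acta2 the sort by its own reporter favoured this, so it is no independent marker here. Against GFP- cells of day 13, 5 of the 24 members were higher in GFP+ cells and 0 lower (2.02% and 2.52% of all probe sets). With the replicate number shared by these sorts as a block, 6 were higher (3.39% of all probe sets).

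**Figure D4:**
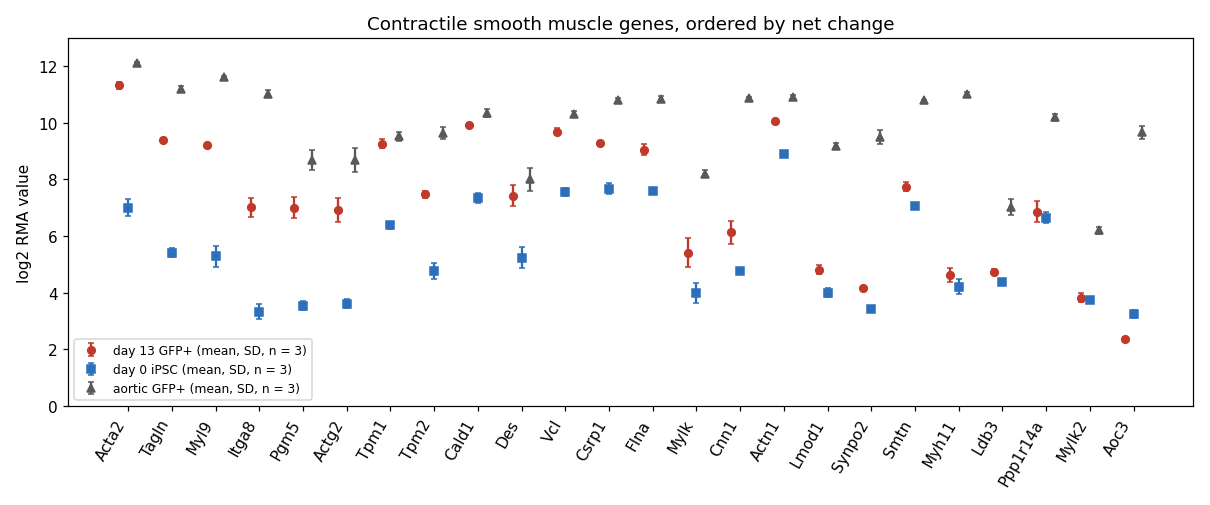
Mean log2 expression ± SD (3 samples each) of the 24 measured contractile genes, ordered by net change, in day 13 GFP+ cells (red circles), day 0 iPSC (blue squares) and aortic GFP+ cells (grey triangles). From Acta2 to Mylk the GFP+ means lie well above day 0, and at Myh11, Smtn and Ppp1r14a they lie near day 0 and far below aorta.

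A promoter with a CArG box, the letters that serum response factor binds, is shown for Myl9 because it was among the genes of largest rise and its printed window holds 1 such box, in capitals. The window (RefSeq, GRCm38.p6) runs from 250 bases before to 50 after the gene start, at chr2:156775214-156775513 on the plus strand, and the box begins at position -161 relative to the start.
Myl9 promoter: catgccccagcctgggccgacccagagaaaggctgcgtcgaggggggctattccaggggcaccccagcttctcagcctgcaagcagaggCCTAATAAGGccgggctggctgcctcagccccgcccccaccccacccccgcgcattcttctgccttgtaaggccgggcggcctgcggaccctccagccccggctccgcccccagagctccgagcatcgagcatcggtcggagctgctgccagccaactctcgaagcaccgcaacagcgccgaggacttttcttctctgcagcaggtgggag
A CArG box was found in 3 of 19 contractile genes with a promoter in the table (15.8%), in 5 of 23 actin cytoskeleton genes (21.7%) and in 488 of 27025 genes in all (1.81%). The pattern searched is its own reverse complement, so 1 search covers both strands, and a match is a description of the letters only.

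Regulators of smooth muscle rose in 20 of 26 members and fell in 2 (median 1.15). Myocd, the coactivator myocardin, measured 5.25, 5.81 and 5.54 in GFP+ samples, against 3.16, 3.44 and 3.34 at day 0 (log2 change 2.22, SE 0.147, 4.66-fold, limma adjusted p = 6.64e-09), without overlap. Myocd was lower in GFP+ than in GFP- cells of day 13 (log2 difference -1.44, limma adjusted p = 3.34e-05). Srf, its DNA-binding partner, averaged 6.66 in GFP+ cells and 6.48 at day 0 and did not pass (log2 change 0.18, limma adjusted p = 0.424). Meox1 (4.66) and Meox2, mesodermal homeobox genes, Gata6 (3.70), Prrx1 (3.12) and Mef2c (2.72) rose. Meox2 measured 3.42, 6.48 and 6.54 in GFP+ samples, against 2.24, 2.60 and 2.23 at day 0 (log2 change 3.12, limma adjusted p = 0.00253), and its log2 change was 4.15 without GFP+ sample 3, the lowest GFP+ value. The Krüppel-like factors Klf4 (-3.24) and Klf5 (-2.68), which also belong to the pluripotency network, were the 2 that fell.

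Mural and pericyte genes rose in 10 of 15 members and 0 fell (median 1.69). Pdgfrb, the receptor that recruits mural cells, measured 8.42, 8.65 and 8.64 in GFP+ samples, against 4.15, 4.75 and 4.42 at day 0 (log2 change 4.13, SE 0.154, 17.5-fold, limma adjusted p = 1.36e-11). All GFP+ samples were higher. The soluble guanylate cyclase subunits Gucy1b1 (3.75) and Gucy1a1 (2.69), which relay nitric oxide, rose together. Pdgfra rose by 2.05, and by 2.64 without GFP+ sample 3. Receptors and channels of vascular cells rose in 12 of 23 members and 0 fell (median 0.57). The stretch-gated channel gene Piezo2 measured 8.53, 7.92 and 8.07 in GFP+ samples, against 3.06, 3.41 and 3.62 at day 0 (log2 change 4.81, SE 0.224, 28.1-fold, limma adjusted p = 1.48e-10), again with no overlap. The sphingosine receptor S1pr3 (3.52), the endothelin receptor Ednrb (2.90), the calcium-gated potassium channel Kcnma1 (2.83) and the L-type calcium channel Cacna1c (2.60) rose. Kcnmb1, the smooth muscle beta subunit of Kcnma1 channels, rose (1.78) to a mean of 5.61 in day 13 GFP+ cells, against 3.82 at day 0, and stood at 10.29 in aortic cells. Caveolae and membrane repair genes rose in 11 of 14 members and 0 fell (median 0.92), led by Anxa5 (3.86), Ehd2 (2.02) and Cavin1 (1.88). Cav1 itself did not pass (log2 change 0.32, adjusted p = 0.214), except without GFP+ sample 6 (0.0363). Actin cytoskeleton genes rose in 13 of 25 members and 1 fell (median 0.73), with Pdlim3 (4.21), Lpp (3.24) and Fhl2 (2.95) among the largest and the non-muscle myosin gene Myh14 (-0.70) as the one that fell.

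Matrix genes rose together. Of the collagens 19 of 21 rose and 0 fell (median 2.80). Col1a1, the main chain of type I collagen, measured 10.83, 11.23 and 11.41 in GFP+ samples, against 6.01, 6.37 and 5.89 at day 0 (log2 change 5.07, SE 0.344, 33.6-fold, limma adjusted p = 8.99e-09). Its partner chain Col1a2 (4.91), Col11a1 (4.72) and Col5a2 (4.28), which join or initiate fibrils, rose too. By stage, 3 collagens were higher and 2 lower at day 5 than at day 0, where 14.9% and 13.9% of all probe sets were, so the early count was not above that of all genes. In GFP+ cells against day 5, 20 were higher, where 14.3% of all probe sets were. Of the 21, 10 were higher in GFP+ than in GFP- cells of day 13 and 0 lower, where 2.02% and 2.52% of all probe sets were. With the replicate number shared by these sorts as a block, 14 of the 21 were higher, where 3.39% of all probe sets were. Col3a1 averaged 10.04 in GFP+ and 8.66 in GFP- cells (limma adjusted p = 0.00994).

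Elastic fibre and crosslinking genes rose in 15 of 20 members and 1 fell (median 2.70). Lox, which crosslinks collagen and elastin, measured 9.71, 10.43 and 10.50 in GFP+ samples, against 5.23, 5.69 and 5.51 at day 0 (log2 change 4.74, SE 0.417, 26.6-fold, limma adjusted p = 1.69e-07). All GFP+ values were higher, and the day 5 mean was 2.91. Emilin1 (4.03), Fbln5 (3.75) and Loxl1 (3.64), proteins of elastic fibre assembly, rose. Mfap5 (-1.06), a microfibril glycoprotein, fell, and averaged 3.72 in GFP+ cells, 4.78 at day 0 and 9.13 in aortic cells.

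Matricellular and proteoglycan genes rose in 21 of 22 members (median 3.70), and the remaining one did not pass. Tgfbi measured 10.97, 10.55 and 10.69 in GFP+ samples, against 4.72, 5.27 and 4.76 at day 0 (log2 change 5.82, SE 0.333, 56.6-fold, limma adjusted p = 1.32e-09). Fmod, a proteoglycan of collagen fibrils, measured 8.20, 9.66 and 9.92 in GFP+ samples, against 3.04, 3.58 and 3.83 at day 0 (log2 change 5.78, SE 0.639, 54.9-fold, limma adjusted p = 2.02e-06). GFP+ sample 3 was the lowest for Fmod, and both genes lay above every day 0 value in all GFP+ samples. Ccn4 (4.81), a Wnt-induced secreted protein, rose, and so did Aspn (4.99, 5.86 without GFP+ sample 3) and Dcn (2.75, 3.51 without GFP+ sample 3), small proteoglycans. Over the 22 members the mean level was 8.64, 9.30 and 9.44 in GFP+ samples, against 5.86, 5.93 and 5.77 at day 0, so sample 3 had the lowest GFP+ mean. By stage, 2 members were higher and 8 lower at day 5 than at day 0 (14.9% and 13.9% of all probe sets), and all 22 were higher in GFP+ cells than at day 5 (14.3% of all probe sets). Matrix proteases and inhibitors rose in 14 of 16 members and 0 fell (median 2.56). The gelatinase gene Mmp2 (4.54) and its membrane-bound activator Mmp14 (4.23) rose most, with Serpinh1 (3.43), a chaperone of collagen folding. Mmp2 measured 10.72, 10.76 and 10.90 in GFP+ samples, against 6.18, 6.21 and 6.38 at day 0, far apart (log2 change 4.54, limma adjusted p = 1.11e-10).

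Integrin and laminin subunits rose in 18 of 25 members and fell in 6 (median 1.56). The collagen receptor subunits Itga1 (3.95) and Itga11 (3.36) and the laminin chain Lama4 (3.72), of vessel basement membrane, rose. The subunits that fell were Itga6 (-1.31), Lama1 (-1.04), Itga3 (-1.01), Lama3 (-1.0), Lama5 (-0.91) and Itgb7 (-0.76), of which Itga6 and Itga3 belong to laminin receptors. Itga6 measured 7.45, 7.05 and 6.62 in GFP+ samples, against 8.29, 8.36 and 8.39 at day 0, without overlap (log2 change -1.31, limma adjusted p = 0.000239).

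In the TGF-beta and activin list 13 of 25 members rose and 6 fell (median 0.40). The 3 TGF-beta ligands rose: Tgfb2 (log2 change 4.58), Tgfb3 (4.06) and Tgfb1 (4.03). Tgfb2 measured 7.87, 8.16 and 8.08 in GFP+ samples, against 3.22, 3.36 and 3.78 at day 0 (log2 change 4.58, SE 0.239, 24.0-fold, limma adjusted p = 4.97e-10). Genes of Nodal signalling fell: Tdgf1, the inhibitor Lefty2 (-4.37), Lefty1 (-2.62), Gdf3 (-3.23) and Nodal (-1.94). Lefty2 measured 3.37, 2.62 and 3.04 in GFP+ samples, against 8.04, 7.22 and 6.87 at day 0 (log2 change -4.37, limma adjusted p = 3.54e-09). In neither Tgfb2 nor Lefty2 did the groups overlap. In the Wnt list 15 of 29 members rose and 3 fell (median 0.48), with the secreted antagonist Frzb (4.64), the receptor Fzd2 (3.31) and the antagonist Dkk3 (3.0) highest and Fzd5 (-1.60) lowest. In the FGF and receptor tyrosine kinase list 15 of 34 members rose and 7 fell (median 0.55). Hgf (3.37), the Axl ligand Gas6 (3.34) and Axl itself (2.80) rose, and Fgf4, Erbb3 (-2.59), Fgf15 (-2.06) and the FGF target Etv5 (-1.50) fell. Hgf measured 5.37, 6.56 and 6.83 in GFP+ samples, against 2.70, 2.83 and 3.11 at day 0 (log2 change 3.37, limma adjusted p = 1.13e-06), with every GFP+ value higher. The insulin-like growth factor axis rose in 10 of 15 members and fell in 1 (median 2.02). Igf2, the fetal ligand, measured 11.06, 10.89 and 10.93 in GFP+ samples, against 6.31, 5.97 and 5.80 at day 0 (log2 change 4.93, SE 0.188, 30.5-fold, limma adjusted p = 1.73e-11), again apart. Igfbp7 (4.12), Irs1 (3.26), Igfbp4 (3.17) and Igf1 (2.67) rose, and Igf2r (-1.54), which clears Igf2, fell.

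Of 23 epithelial genes 20 fell and 2 rose (median -1.28). Cdh1, the adhesion protein E-cadherin, measured 4.82, 4.42 and 4.13 in GFP+ samples, against 9.48, 9.45 and 9.27 at day 0 (log2 change -4.95, SE 0.187, 30.8-fold, limma adjusted p = 1.56e-11). The claudin Cldn4 (-4.40), the splicing regulator Esrp1 (-3.69) and the transcription factor Grhl2 (-3.17) fell. Krt18 (1.38) and Krt8 (1.21), the keratins of simple epithelia, rose, after averaging 8.66 and 8.30 at day 5. In 11 of the 23 the level was lower in GFP+ than in GFP- cells, and in 0 higher. Of all probe sets 2.52% were lower and 2.02% higher. Mesenchymal genes rose in 14 of 17 members and 1 fell (median 1.72). Cdh11, a cadherin of mesenchyme, measured 9.06, 10.04 and 10.17 in GFP+ samples, against 5.14, 4.67 and 4.16 at day 0 (log2 change 5.10, SE 0.354, 34.3-fold, limma adjusted p = 1.15e-08). The groups of Cdh1 and Cdh11 lay at opposite ends without overlap. Cdh2 (3.86), N-cadherin, Snai2 (3.50) and Zeb2 (2.80), repressors of E-cadherin, rose. S100a6, a calcium-binding protein, fell (-1.61), with a mean of 7.68 at day 0, 2.68 at day 5 and 6.07 in GFP+ cells.

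Of the primitive streak genes 3 of 14 rose, 1 fell and 10 did not pass (median 0.26). At day 5 against day 0, 9 were higher and 1 lower (14.9% and 13.9% of all probe sets), and in GFP+ cells against day 5, 0 were higher and 8 lower (14.3% and 16.9% of all probe sets). Mixl1 averaged 3.70 at day 0, 10.87 at day 5 and 3.82 in GFP+ cells. It measured 4.36, 3.60 and 3.52 in GFP+ samples, against 4.09, 3.56 and 3.46 at day 0, and the groups overlapped (log2 change 0.12, 95% interval -0.59 to 0.83, limma adjusted p = 0.84). Eomes averaged 4.63, 9.88 and 5.09 at these stages, and its net change did not pass (log2 change 0.46, limma adjusted p = 0.377). Evx1 rose by 0.46, a call lost without any 1 GFP+ sample (adjusted p from 0.0695 to 0.108) and without day 0 sample 5 (0.117) or 6 (0.107). Genes of lateral and cardiovascular mesoderm rose in 15 of 20 members and 1 fell (median 1.92), with 14 higher at day 5 than at day 0 (14.9% of all probe sets) and 11 lower in GFP+ cells than at day 5 (16.9%). Kdr, by which the day 5 cells were sorted, is a member of this list. Bmp4, a ligand of ventral mesoderm, averaged 4.59 at day 0, 10.24 at day 5 and 8.63 in GFP+ cells. It measured 8.66, 8.78 and 8.45 in GFP+ samples, against 5.36, 4.30 and 4.12 at day 0 (log2 change 4.04, SE 0.298, 16.4-fold, limma adjusted p = 2.35e-08), without overlap. The T-box factor Tbx20 (3.96), Hand2 (3.28), Gata4 (2.85) and Isl1 (2.84) rose. Hand1 (0.80) and Msx2 (1.17) passed in all samples but not without GFP+ sample 3 (adjusted p = 0.123 and 0.0592) or day 0 sample 3 (0.0952 and 0.0523). Tbx3, which also belongs to the naive network, was the member that fell (-2.23).

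Some genes were lowest at day 5. Nupr1, a stress-response gene, averaged 8.62 at day 0, 3.75 at day 5 and 8.51 in GFP+ cells, with a net change that did not pass (log2 change -0.11, limma adjusted p = 0.766). Anxa1, a phospholipid-binding protein, averaged 6.15, 2.74 and 8.92 at these stages and rose in net (log2 change 2.76, limma adjusted p = 4.11e-07). The basement membrane gene Nid1 averaged 8.37, 5.01 and 9.24 and rose (log2 change 0.87, limma adjusted p = 0.00462), as did Ahnak2 (1.82) and Emp1 (1.87).

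DNA replication genes fell in 30 of 31 members, and 1 did not pass (median -2.35). Mcm5 (17218_at), a subunit of the replicative helicase, measured 5.63, 5.86 and 5.94 in GFP+ samples, against 9.05, 9.02 and 8.84 at day 0 (log2 change -3.16, SE 0.148, 8.95-fold, limma adjusted p = 1.54e-10). Pole (-3.33) and Pola1 (-3.22), polymerase subunits, Orc1 (-3.08), of the origin recognition complex, and Gins1 (-3.0) fell. Every GFP+ value of Mcm5 lay below every day 0 value. At day 5 against day 0, 6 members were higher and 4 lower, shares near the 14.9% and 13.9% of all probe sets. In GFP+ cells against day 5 all 31 were lower, where 16.9% of all probe sets were. Mcm5 averaged 8.97 at day 0, 8.86 at day 5 and 5.81 in GFP+ cells. Rrm1, a ribonucleotide reductase subunit, did not pass (log2 change -0.36, limma adjusted p = 0.0508), although it did in 6 other fits (adjusted p from 0.0113 to 0.041) including both replicate blocks (0.0231 and 0.0183). In 17 of the 31 the level was lower in GFP+ than in GFP- cells, where 2.52% of all probe sets were. In 27 it was higher than in aortic cells, where 19.5% of all probe sets were.

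The promoters of Mcm5, Mcm7 (log2 change -2.82) and Cdc6 (-2.37), licensing genes that fell, were picked for print from those that hold an E2F motif, because E2F factors are known to drive genes of this class at the start of DNA synthesis. The E2F motif searched was TTTCCCGC or TTTGGCGC on either strand, and it is in capitals in the windows below, which run from 250 bases before to 50 after the gene start (RefSeq, GRCm38.p6). The windows lie at chr8:75109259-75109558 on the plus strand, chr5:138171834-138172133 on the minus strand and chr11:98907901-98908200 on the plus strand.
Mcm5 promoter: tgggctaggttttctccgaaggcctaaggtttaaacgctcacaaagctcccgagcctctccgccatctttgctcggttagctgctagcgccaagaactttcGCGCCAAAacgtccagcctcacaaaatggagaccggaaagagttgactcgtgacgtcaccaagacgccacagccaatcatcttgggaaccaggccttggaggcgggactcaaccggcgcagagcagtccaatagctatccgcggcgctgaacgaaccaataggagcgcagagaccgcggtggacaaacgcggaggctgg
Mcm7 promoter: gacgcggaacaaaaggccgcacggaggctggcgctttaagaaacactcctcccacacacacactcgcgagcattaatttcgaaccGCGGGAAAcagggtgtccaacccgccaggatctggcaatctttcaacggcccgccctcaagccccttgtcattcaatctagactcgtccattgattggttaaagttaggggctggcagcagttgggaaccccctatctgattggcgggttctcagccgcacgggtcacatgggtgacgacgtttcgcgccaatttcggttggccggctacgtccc
Cdc6 promoter: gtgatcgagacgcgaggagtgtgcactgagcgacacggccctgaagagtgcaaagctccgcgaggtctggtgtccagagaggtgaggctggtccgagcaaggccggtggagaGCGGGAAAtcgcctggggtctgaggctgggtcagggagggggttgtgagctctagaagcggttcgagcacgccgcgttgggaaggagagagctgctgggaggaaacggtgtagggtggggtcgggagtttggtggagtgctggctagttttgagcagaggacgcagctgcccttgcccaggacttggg
Each window held 1 match, so no matches overlapped. The motif was found in 10 of 26 DNA replication genes with a promoter in the table (38.5%), 3 of 14 DNA repair genes (21.4%), 0 of 18 mitosis genes and 486 of 27025 genes in all (1.8%). Such a match is a description of the letters, not a bound site.

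All 23 mitosis genes fell (median -1.69), less far at the median than the replication genes. Bub1, a spindle checkpoint kinase, measured 5.33, 6.06 and 6.06 in GFP+ samples, against 8.62, 9.03 and 9.01 at day 0 (log2 change -3.07, SE 0.219, 8.37-fold, limma adjusted p = 1.56e-08), without overlap. All 17 DNA repair genes fell (median -2.09), among them Fanci (-3.01), Brca1 (-2.76) and Fancd2 (-2.62). In the Myc and ribosome biogenesis list 22 of 24 members fell (median -1.65). Dkc1, the pseudouridine synthase dyskerin, measured 5.35, 5.54 and 5.08 in GFP+ samples, against 9.19, 9.0 and 9.10 at day 0 (log2 change -3.77, SE 0.152, 13.7-fold, limma adjusted p = 3.2e-11), with all GFP+ values lower. Fbl (-2.58), the nucleolar methyltransferase fibrillarin, and Polr1b (-2.08), a subunit of RNA polymerase I, fell, and the Myc antagonist Mxd4 rose (2.33). Cell cycle inhibitors, cyclins and p53 targets moved both ways, with 7 of 26 that rose and 7 that fell (median 0.07). Ccnd2, a D-type cyclin, measured 8.85, 9.04 and 8.81 in GFP+ samples, against 6.35, 5.27 and 5.16 at day 0 (log2 change 3.31, SE 0.229, 9.9-fold, limma adjusted p = 1.13e-08). The inhibitors Cdkn1a (1.65) and Cdkn1b (1.63) rose and the S-phase cyclin Ccne1 (-2.57) fell. The sign of that list's median turned between settings, from -0.03 to 0.17.

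Of 18 glycolysis genes 11 fell and 1 rose (median -0.82). Pgam1 (-3.25, -3.89 without GFP+ sample 3), Ldhb (-1.82), Pfkp (-1.81) and Hk2 (-1.76) fell and the neuronal enolase Eno2 rose (1.17). The mean of the 18 members was 8.14, 7.36 and 7.33 in GFP+ samples, against 8.32, 8.58 and 8.47 at day 0, so that sample 3 lay nearer to day 0 than the other GFP+ samples. Of 25 oxidative phosphorylation genes 13 fell and 1 rose (median -0.49). Ndufa1 (-1.42) and Cyc1 (-1.26), of complexes I and III, fell. Cox7a1 fell (-1.29), a call lost without GFP+ sample 5 (adjusted p = 0.091) or 6 (0.0729) or day 0 sample 5 (0.0909) or 6 (0.0907). Ppargc1a, the coactivator of mitochondrial genes, rose (log2 change 2.17, limma adjusted p = 7.88e-07). Lysosomal genes rose in 13 of 22 members and fell in 2 (median 0.63), led by Cd63 (1.56) and the collagen-degrading cathepsin Ctsk (1.42). In a test against a 2-fold change, 1 of the 22 lysosomal genes rose. In that test 4 of the 18 glycolysis genes and 0 of the 25 oxidative phosphorylation genes fell.

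Imprinted genes, expressed from 1 parental copy, rose in 18 of 31 members and fell in 5 (median 1.16). The array does not tell the parental copies apart. Plagl1, a zinc finger factor that regulates other imprinted genes, measured 10.11, 10.15 and 10.28 in GFP+ samples, against 5.74, 5.24 and 5.09 at day 0 (log2 change 4.82, SE 0.222, 28.3-fold, limma adjusted p = 1.29e-10). H19, the non-coding neighbour of Igf2, measured 10.58, 10.63 and 10.58 in GFP+ samples, against 6.76, 7.47 and 7.44 at day 0 (log2 change 3.38, SE 0.296, 10.4-fold, limma adjusted p = 1.59e-07). Dlk1 (3.84) and Meg3 (3.09), which share a locus, rose too. Each of these genes was higher in all GFP+ samples than in any day 0 sample. Mest averaged 8.56 at day 0, 11.81 at day 5 and 11.46 in GFP+ cells, and Peg3 averaged 9.90, 11.67 and 11.45. Grb10, an adaptor that damps insulin receptor signalling, measured 4.31, 5.05 and 4.51 in GFP+ samples, against 6.55, 7.13 and 7.22 at day 0 (log2 change -2.35, limma adjusted p = 3.42e-07). Besides Grb10 and Igf2r, Phlda2 (-1.46), Impact (-0.54) and Copg2 (-0.52) fell. In 18 of the 31 the level was higher in day 13 GFP+ than in aortic cells and in 3 lower. Of all probe sets 19.5% were higher and 17.7% lower. Igf2 averaged 10.96 in day 13 GFP+ cells and 6.67 in aortic cells, and H19 10.60 and 3.96 (limma adjusted p = 7.41e-11 and 9.1e-11).

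Hox genes mark position along the body axis, and the paralogs of high number are the posterior ones. Of paralogs 10 to 13, 8 of 12 rose and 1 fell (median 1.04). Hoxd13 measured 5.36, 6.02 and 5.69 in GFP+ samples, against 3.49, 3.38 and 3.29 at day 0 (log2 change 2.30, SE 0.225, 4.94-fold, limma adjusted p = 5.31e-07). Hoxa13 measured 5.08, 5.80 and 5.68 in GFP+ samples, against 3.49, 3.23 and 3.19 at day 0 (log2 change 2.22, SE 0.241, 4.65-fold, limma adjusted p = 1.68e-06). The groups did not overlap in either gene. Hoxd11 (2.07), Hoxa11 (1.72) and Hoxd10 (1.61) rose, and Hoxc13 fell (-0.64). Of paralogs 5 to 9, 4 of 15 rose and 0 fell (median 0.31), and of paralogs 1 to 4, 3 of 11 rose and 0 fell (median 0.27). Among the anterior and middle paralogs Hoxa9 (1.58), Hoxb4 (1.46), Hoxc6 (1.43) and Hoxb2 (1.24) rose. Under other models and scalings or with a sample left out, 2 to 6 of paralogs 5 to 9 and 2 to 5 of paralogs 1 to 4 rose. A test against a 2-fold change called 0 in both groups, and 1 in each rose among probe sets above the median level. Of paralogs 10 to 13 the same test called 4 of 12 that rose. Only 1 of these 12 lay above the median level, and it rose. The calls of Hoxa3 (0.63), Hoxb6 (0.62) and Hoxc9 (0.44) were lost without GFP+ sample 6 (adjusted p = 0.0709, 0.065 and 0.0566). Hoxa3 was also lost without day 0 sample 5 (0.0825), Hoxb6 without day 0 sample 3 (0.0964) or 5 (0.0615), and Hoxc9 without GFP+ sample 5 (0.121) or day 0 sample 3 (0.0946). In 7 of the 12 posterior genes the level was higher in day 13 GFP+ than in aortic cells and in 0 lower. Of all probe sets 19.5% were higher and 17.7% lower. Hoxd13 averaged 5.69 in day 13 GFP+ cells and 3.07 in aortic cells.

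**Figure D5:**
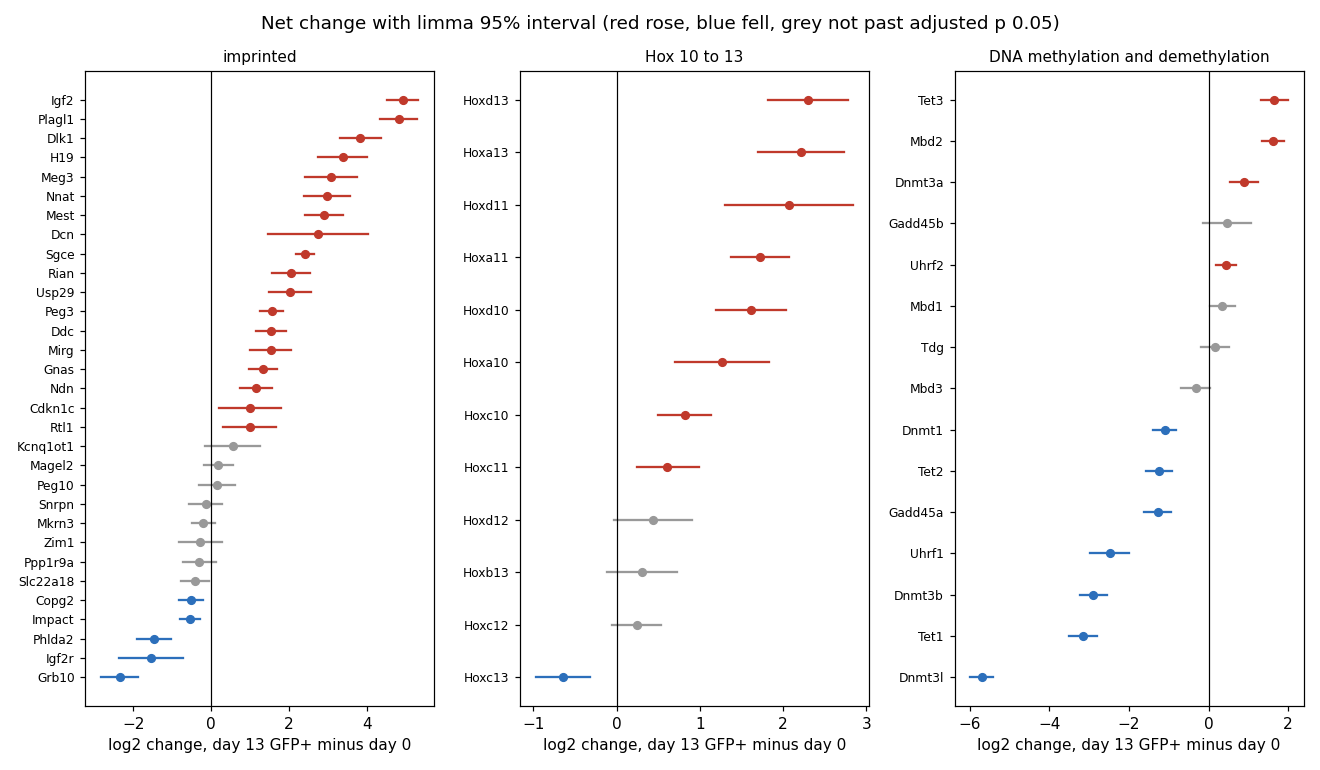
Log2 net change (day 13 GFP+ minus day 0, horizontal axes) with its 95% limma interval for imprinted genes, Hox paralogs 10 to 13 and DNA methylation genes, 1 point per gene, red where it rose, blue where it fell and grey where it did not pass. Igf2 and Plagl1 lie near 5, Hoxd13 and Hoxa13 above 2, and Dnmt3l at -5.70.

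Fibroblast and tendon genes rose in 11 of 16 members and fell in 1 (median 1.79), but 4 rose in a test against a 2-fold change. Scx, the tendon transcription factor scleraxis, measured 7.80, 8.78 and 8.81 in GFP+ samples, against 3.55, 4.68 and 4.02 at day 0 (log2 change 4.38, SE 0.308, 20.8-fold, limma adjusted p = 1.33e-08). Tnmd, the tendon protein tenomodulin, measured 3.16, 8.55 and 8.83 in GFP+ samples, against 2.64, 2.66 and 2.54 at day 0 (log2 change 4.23, SE 1.29, 18.8-fold, limma adjusted p = 0.0154). Scx was high in all 3 GFP+ samples, while Tnmd was high in samples 5 and 6 and near its day 0 level in sample 3. Without GFP+ sample 3 the log2 change of Tnmd was 6.08 (adjusted p = 0.000159), and without sample 5 or 6 it was 3.38 or 3.24 and did not pass (adjusted p = 0.08 and 0.0863). Thbs4, a thrombospondin of tendon, changed by 3.64 in all samples, 5.02 when GFP+ sample 3 was left out, 3.0 for sample 5 and 2.90 for sample 6. Mkx, the homeobox gene mohawk, rose (2.54, 3.19 without GFP+ sample 3). Over the 16 members the mean was 5.16, 6.20 and 6.38 in GFP+ samples, against 3.82, 3.91 and 3.84 at day 0. Thy1 (-1.04), a surface protein of many fibroblasts, fell. Fmod, Lum and Dcn are matrix genes of this list as well, and the part of fibroblast and tendon cells in the rise of the matrix genes was not tested.

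Cardiac muscle genes rose in 7 of 18 members and fell in 2 (median 0.67), and 6 to 11 rose under other models and scalings or with a sample left out, the most with array weights, but 3 in a test against a 2-fold change. Tnni1, the slow troponin I, measured 9.58, 9.05 and 8.95 in GFP+ samples, against 4.47, 4.37 and 5.09 at day 0 (log2 change 4.55, SE 0.232, 23.5-fold, limma adjusted p = 4.01e-10). Tnnt2, cardiac troponin T, measured 9.52, 9.53 and 9.24 in GFP+ samples, against 5.02, 5.02 and 5.43 at day 0 (log2 change 4.27, SE 0.193, 19.3-fold, limma adjusted p = 1.11e-10). Both troponins were higher in every GFP+ sample. Actc1 (3.95), cardiac actin, and Ttn (2.19, 2.87 without GFP+ sample 3), the sarcomere spring titin, rose. Myl4 rose by 1.75, and by 2.39 without GFP+ sample 3, but did not pass without GFP+ sample 5 (adjusted p = 0.0662) or 6 (0.0853) or day 0 sample 3 (0.0606). The atrial light chain gene Myl7 measured 3.11, 5.85 and 5.92 in GFP+ samples, against 3.64, 3.51 and 3.10 at day 0, and did not pass (log2 change 1.55, limma adjusted p = 0.0629), except without GFP+ sample 3, the lowest GFP+ value (log2 change 2.47, adjusted p = 0.000432), or with array weights (0.000398). The natriuretic peptide gene Nppb (-1.80) fell, and Actn2 (-0.51) fell but not without GFP+ sample 3 (adjusted p = 0.0818). Skeletal muscle genes rose in 2 of 16 members and fell in 1, both below the 17.7% and 19.8% of all probe sets. Cartilage and bone genes rose in 6 of 15 and fell in 3 (median 0.23), with Sox9 (3.34), Sox5 (2.72) and Sox6 (2.57), the factors that start cartilage, highest. Adipocyte genes rose in 3 of 10, led by the lipase Lpl (3.14).

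Endothelial genes rose in 5 of 18 members and fell in 4 (median 0.09). Erg (3.19), a transcription factor of endothelium that averaged 7.89 in aortic GFP+ cells, Kdr (2.76) and Flt1 (1.48) rose. Pecam1, the adhesion protein CD31 that mouse pluripotent cells carry as well, measured 4.25, 4.19 and 4.30 in GFP+ samples, against 7.74, 8.23 and 8.0 at day 0 (log2 change -3.75, SE 0.234, 13.4-fold, limma adjusted p = 3.78e-09), so it was lower in all GFP+ samples. Tek (-2.54), the angiopoietin receptor, fell, while VE-cadherin, Cdh5, averaged 4.77 in GFP+ cells and 4.34 at day 0 and did not pass (log2 change 0.43, limma adjusted p = 0.364). Cldn5 fell by 0.42 on the log2 scale, a call lost in 9 settings besides the test against a 2-fold change (adjusted p from 0.0509 to 0.235). The member means of the endothelial list were 4.41 to 4.49 in GFP+ samples, against 4.34 to 4.39 at day 0. Macrophage and leukocyte genes fell in 6 of 15 members and 0 rose (median -0.37), with Laptm5 (-4.38) and Cd68 (-1.31) lowest. Blood progenitor genes rose in 3 of 14 and fell in 2, but 1 rose without GFP+ sample 3 or without day 0 sample 3. Runx1, a factor of blood and of mesenchyme, measured 7.84, 7.36 and 7.37 in GFP+ samples, against 3.66, 4.37 and 4.01 at day 0 (log2 change 3.51, SE 0.203, 11.4-fold, limma adjusted p = 1.5e-09), without overlap, and Gata2 fell (-1.39). Endoderm genes rose in 5 of 17 and fell in 2 (median 0.11), led by Dab2 (3.67) and Gata4. Of the 17, 13 were lower in GFP+ than in GFP- cells of day 13, where 2.52% of all probe sets were. Mesothelial genes rose in 4 of 14 and fell in 1, and neural genes rose in 3 of 14 and fell in 3, with Ncam1 (3.74) highest and Map2 (-1.82) lowest. Of all probe sets 17.7% rose and 19.8% fell. Both neural shares and the share of blood progenitor genes that rose were near these.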

How the data were processed

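Expression was measured on Affymetrix Mouse Gene 2.0 ST arrays, 1 per sample. The deposited values are log2 values that the authors made with RMA in affy 1.36.1 and R 2.15.1, per the submitters' processing notes. The range of the values showed the log2 scale. For the build, a statement was not given in the sources used here. Of 25206 probe sets 23185 had 1 gene symbol in the platform annotation, 2021 had none and 0 had several. No detection calls came with these values, and the small number of arrays limits the precision.

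All 15 samples entered 1 limma fit (version 3.58.1, R 4.3.3) with a mean per group, empirical Bayes moderation and Benjamini-Hochberg adjustment over all probe sets, with a threshold of 0.05; every adjusted p in the text comes from limma. Tables and figures were made with Python 3.11.15, pandas 2.3.3 and matplotlib 3.10.9. In simulated data with 25206 genes, 67, 67 and 66 were altered by 0.5, 1 and 2 on the log2 scale. The share of these recovered was 11.9%, 73.1% and 98.5%, with 6 false among 128 calls. In the real comparison 37.5% of probe sets were called, which moves the cutoff of the adjustment. These shares therefore do not tell how many real changes of such sizes were found. No label says that the numbers pair the GFP+ and day 0 samples, so the fit has no block. Same-numbered GFP+ and day 0 samples deviated from their group means with correlations of -0.072, -0.07 and 0.046. Such small correlations in groups of 3 cannot show that the samples were unpaired. Same-numbered GFP+ and GFP- samples of day 13 deviated together (0.597, 0.403 and 0.397), so a fit with the number as a block shared by these sorts was added after the data were seen. Samples 5 and 6 deviated together across numbers too (0.278 for GFP- 5 with GFP+ 6, 0.345 for GFP- 6 with GFP+ 5). Pairs of sample 3 with sample 5 or 6 had correlations from -0.5 to -0.419.

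The members and the 52 gene lists were chosen with earlier results of these data known. Of the list genes 980 were measured and 65 were not. Named genes are Acta2 and Pou5f1, up to 15 of the largest changes each way whose groups did not overlap (predicted and clone names left out), up to 6 of the largest called changes of each list, list members called against the majority, and up to 8 genes each that were highest or lowest at day 5. Named after their values were seen were Myh11, Cnn1, Smtn, Lmod1, Synpo2, Srf, Myocd, Kcnmb1, Cav1, Mkx, Mir143, Mir302b, Mir302c, Mir302d, Mest, Peg3, Lin28b, Sall4, Tet2, Jarid2, Rrm1, Cdc6, Cdh5 and Myl7. Alternatives were the 6 samples alone, other variance models, array weights, 3 scalings, a level filter, a replicate block, a test against a 2-fold change (treat) and leaving out each sample. Sequences are from RefSeq tables of GRCm38.p6.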

Additional observations from a re-analysis of the deposited data

Results flagged for a closer look

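Srgn, the proteoglycan serglycin of secretory granules, moved in opposite directions in the day 13 sorts. Its log2 net change against day 0 was -1.43 in GFP+ cells and 2.2 in GFP- cells, and the GFP+ and GFP- levels differed (means 6.28 and 9.91, limma adjusted p = 5.27e-07). Ephx1, the microsomal epoxide hydrolase, changed by 0.40 in GFP+ cells and by -0.94 in GFP- cells, with a limma adjusted p of 2.08e-05 for the difference between the sorts. The GFP+ change of Ephx1 did not pass without GFP+ sample 3 (adjusted p = 0.109) or without day 0 sample 3 (0.084) or 6 (0.0845). These genes stood out because, among the 382 named genes, their called changes had opposite signs. The other probe sets were not searched for such changes. Groups of 3 samples are too small for a test of single outlying samples.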

How the results depend on the processing

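The counts of 4463 probe sets that rose and 4993 that fell stayed within 1.5 times under every alternative except the test against a 2-fold change (limma's treat), which by its own construction called 1184 higher and 1130 lower. Leaving out 1 sample at a time gave 4022 to 4186 that rose and 4474 to 4729 that fell, and 2218 to 2291 and 2387 to 2505 for changes of at least 2-fold. The replicate block changed the counts to 4778 and 5386 (fixed) and 4733 and 5373 (random); it ended the calls of Cldn5 (fixed, adjusted p = 0.0517) and Cd36 (random, 0.0584), gave calls to Rrm1 and Sfrp1, and changed no other call among named genes. No label pairs these samples by number, and same-numbered deviations correlated weakly (-0.072, -0.07 and 0.046), so the block is an alternative only. Rescaling moved a sample's median by at most 0.107 to 0.151, and the share of calls that rose was 46.1% to 51.2% across settings. Of 382 named genes 364 were called, and 29 changed their call when some sample was left out. Mixl1, without a call, had log2 changes of -0.01 with array weights and -0.15 to 0.31 with a sample left out, and Nupr1, also without one, -0.33 to 0.02; the cause was not tested. With the test against a 2-fold change and the level filter left aside, the larger count of 6 lists moved by over 1.5 times (Hox 1 to 4, Hox 5 to 9, antigen presentation, blood, cardiac and endoderm), and 7 list medians near 0 changed sign; the test against a 2-fold change moved the count of 36 of 52 lists by that much, and the level filter that of 6. The replicate number shared by the day 13 sorts as a block gave 854 probe sets higher and 944 lower in GFP+ than in GFP- cells, against 508 and 634 without it, and changed no call of Acta2, Myocd, Col3a1, Srgn or Ephx1. With 3 arrays a group and no detection calls, small changes and low levels are the least certain.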

Other observations

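Of 23 antigen presentation and interferon genes 4 rose and 4 fell (median log2 change 0.08), near the 17.7% and 19.8% of all probe sets. The count that rose ranged from 4 to 8 under other models and scalings or with a sample left out, but was 0 in a test against a 2-fold change. B2m, the light chain of class I molecules, measured 9.82, 10.28 and 10.21 in GFP+ samples, against 8.68, 8.80 and 8.64 at day 0 (log2 change 1.40, limma adjusted p = 4.79e-06), with no overlap. Tapbp (1.22), the peptide-loading protein tapasin, rose as well, and Bst2 (-1.80), the membrane protein tetherin, fell. Of 17 complement and coagulation genes 6 rose and 2 fell (median 0.14), among them Plat (2.46), tissue plasminogen activator, and Serping1 (1.01), the C1 inhibitor, which rose.

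Immediate early genes rose in 7 of 19 members, 4 fell and 8 did not pass (median 0.17). Ier3 (1.87) and Fosl2 (1.75) rose and Fosb (-1.22) and Dusp1 (-1.43), a phosphatase of MAP kinases, fell. Of the 19 members, 18 were lower in day 13 GFP+ than in aortic cells, where 17.7% of all probe sets were. Of 18 fetal RNA-binding and splicing genes 7 rose and 7 fell (median 0.22). Hmga2, a chromatin protein of fetal growth, measured 7.79, 8.34 and 8.19 in GFP+ samples, against 6.07, 5.91 and 6.08 at day 0 (log2 change 2.09, limma adjusted p = 7.93e-07), and lay higher in each GFP+ sample. Lin28a, which blocks let-7 maturation, averaged 6.79 at day 0, 8.0 at day 5 and 4.34 in GFP+ cells and fell in net (log2 change -2.45, limma adjusted p = 7.39e-08).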
